A study of Triticum aestivum with 4 samples.

Results

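The comparison described here sets leaves of winter wheat at the winter dormancy stage against leaves at the three-leaf stage, using every miRNA in both deposited tables. It draws on 2 of the 4 small RNA libraries of the series and on 371 known miRNA names, in 289 families, and 82 predicted miRNAs. Wild-type plants of Triticum aestivum, cultivar winter wheat Shimai 22, grew untreated in the field under natural weather. Leaves were taken 98 days after sowing for winter dormancy and 23 days after sowing for the three-leaf stage, before the spring green-up and jointing stages that make up the rest of the series. RNA of 3 biological replicates was mixed into 1 library per stage, so the spread between plants was not measured, no p-value is given, and plant age, season, temperature and day length cannot be told apart. The labels name leaf as the tissue, and a miRNA table holds no mRNA marker with which to check it.

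Plant miRNAs are short RNAs cut from a folded precursor by a Dicer-like enzyme and loaded into an Argonaute protein. There they pair with messenger RNAs of near-complementary sequence and direct their cleavage or block their translation. Many conserved families act on transcription factors that set leaf shape, hormone response and the move from juvenile to flowering growth, and others act on nutrient and metal homeostasis or on the silencing machinery itself.

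The mature sequences on which the comparison turns are given from 5′ to 3′, with the seed, bases 2 to 8, in capitals. The first set holds the most abundant miRNA, the related pair miR159a.1 and miR319b-3p, only 1 of which passed the 2-fold rule, and conserved miRNAs of the role lists whose values are set side by side in the results, whether or not they passed it. Sequences of known miRNAs come from the study's supplementary list and those of predicted miRNAs from the deposited table.
miR168a-5p: uCGCUUGGugcagaucgggac
miR159a.1: uUUGGAUUgaagggagcucug
miR319b-3p: uUGGACUGaagggugcucccu
miR164a: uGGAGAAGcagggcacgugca
miR165a-3p: uCGCACCAggcaucacucccc
miR169f-3p: gGCAAGUCcguccuuggcuaca
miR169b-5p: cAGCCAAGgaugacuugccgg
miR169g: uAGCCAAGgaugacuugccugu
miR160a-5p: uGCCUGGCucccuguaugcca
miR827: uUAGAUGAccaucagcaaaca
miR5200a-3p: uGUAGAUAcucccuaaggcuu
The second set holds less conserved names that were among the most abundant, names listed in only 1 of the 2 libraries, and miR4410, which was listed in both at unlike levels.
miR7757-5p: aCAAAACCuucagcuauccauc
miR5048-5p: uUUGCAGGuuuuaggucuaagu
miR9662a-3p: uUGAACAUcccagagccaccg
miR5062a: uGAACCUUggggaaaagccgcau
miR4410: uCAUUUUGcuccguauguagucac
miR1509b: aAUCAAGGaaauugcaagggu
miR7767-5p: cACCCCAAgaugagugcucucuc
miR5175a: aCAAAUAUuuaggaacggagg
miR5809: cUUCGUGCcggcgacgcauca

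Values are reads per 1000000 mapped reads, the unit the study calls TPM. Mapped reads, in units of 1000000, numbered 20.5 in the winter dormancy library and 20.3 in the three-leaf library, so 1 read was worth 0.0487 and 0.0493 TPM. A value of 5 TPM rested on 103 reads at winter dormancy and 102 reads at the three-leaf stage. A miRNA was counted as higher or lower at winter dormancy when it differed more than 2-fold and exceeded 5 TPM in either library. The 95% intervals are exact intervals on the estimated reads and cover counting error only, and PCR copies are not independent molecules.

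The pool of known miRNAs was dominated in both libraries by the same families. Known miRNAs summed to 226286 TPM at winter dormancy and 190862 TPM at the three-leaf stage, a 1.19-fold difference. In RNA of whole leaves, more cells of a type and more of a miRNA per cell cannot be told apart. Gains over 152 names summed to 48870 TPM and losses over 129 names to -13446 TPM. The miR168 family rose by 32861 TPM, equal in size to 92.8% of the net gain of 35424 TPM. Without that family the sums were 122635 TPM at winter dormancy and 120072 TPM at the three-leaf stage, which differ 1.02-fold. The 2 leading families, miR168 and miR159, held 66.3% of the known total at winter dormancy and 63.7% at the three-leaf stage. The 10 leading families held 84.4% at winter dormancy and 83.8% at the three-leaf stage, and 9 of the 10 were the same.

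**Figure D1:**
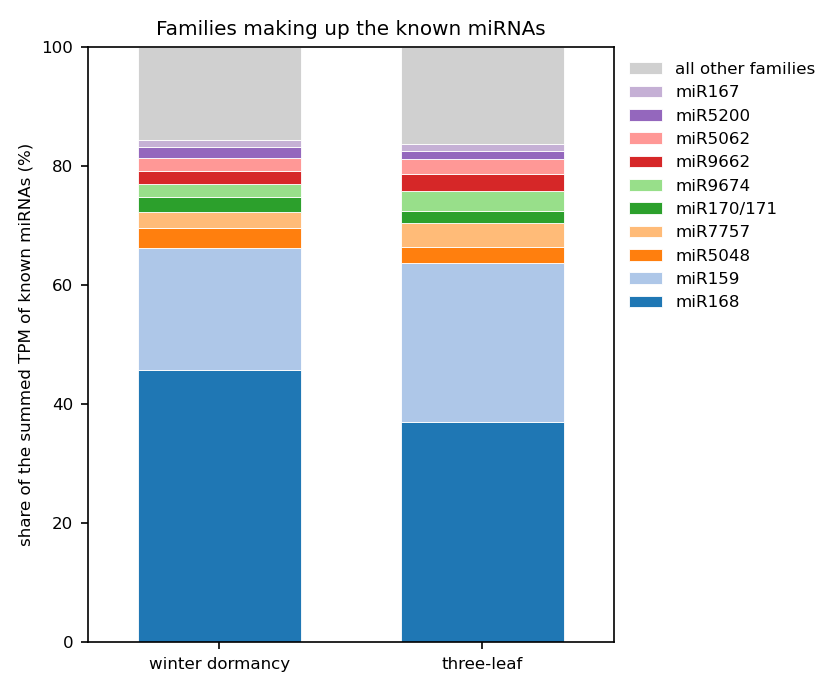
Share of the summed TPM of known miRNAs, in percent, held by the 10 leading families of the winter dormancy library and by all other families, with the winter dormancy library on the left and the three-leaf library on the right. The miR168 family takes 45.8% at winter dormancy and 37.1% at the three-leaf stage, and miR159 is the next largest segment in both.

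By the 2-fold rule, 32 known names were higher at winter dormancy, 8.63% of the 371, and 29 were lower, 7.82%. Of these 61 names, 37 were listed at 0 in 1 of the 2 libraries, so that only 24 had a value in both, 10 higher and 14 lower. On family sums, 22 of 289 families were higher, 7.61%, and 21 were lower, 7.27%. Among predicted miRNAs, 6 of 82 were higher, 7.32%, and 5 were lower, 6.1%. Among the 183 known names listed in both libraries with more than 5 TPM in either, the median ratio of winter dormancy over three-leaf was 1.02, with 95 names above 1 and 86 below. Scaled instead to the total of all listed miRNAs, which moves every log2 ratio by -0.24, 24 known names were higher and 35 lower, 17 families were higher and 29 lower, and 5 predicted miRNAs were higher and 7 lower. Upward differences of less than that size changed sign with the scaling.

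**Figure D2:**
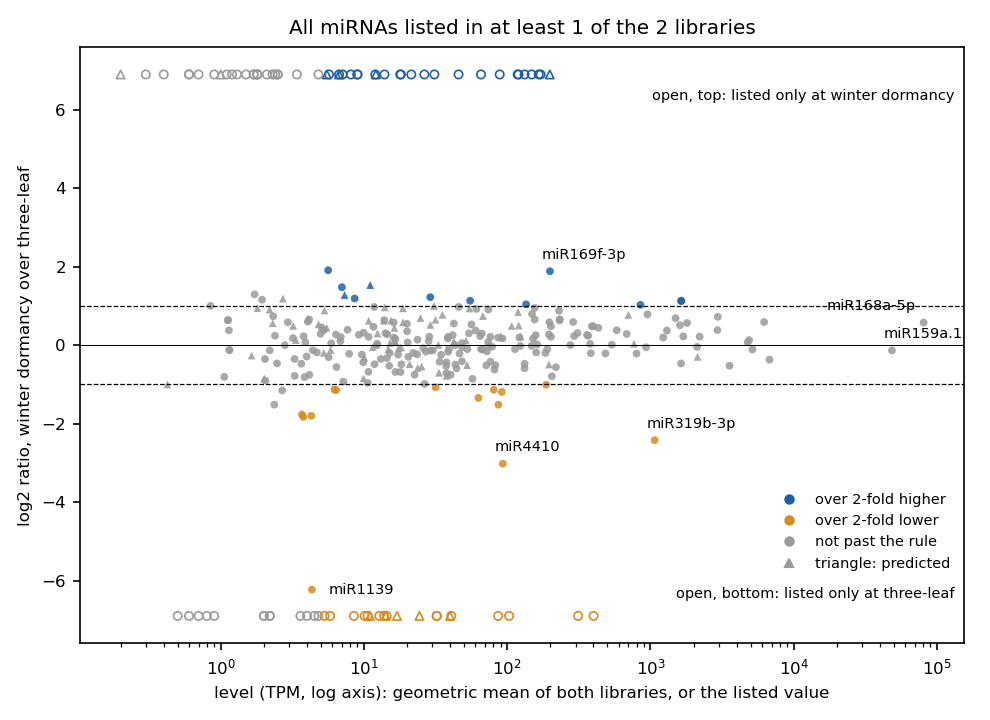
Log2 ratio of winter dormancy over three-leaf for each miRNA, against its level in TPM on a log axis, with circles for known and triangles for predicted miRNAs and dashed lines at 2-fold. Open symbols at the top and bottom edges are miRNAs listed in only the winter dormancy or only the three-leaf library, plotted at their listed value. Most points of more than 100 TPM lie between the dashed lines, and miR319b-3p and miR4410 stand below them.

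Abundant known miRNAs mostly had similar values in both libraries. Of the 67 names with more than 100 TPM in both libraries, 48 differed by at most 1.5-fold and 14 by at most 1.1-fold. These 48 steady names carried 87.2% of the known TPM at winter dormancy and 88.5% at the three-leaf stage. A large part was miR168a-5p alone, which at 1.49-fold higher was close to the 1.5-fold limit. It made up 98540 of their 197410 TPM at winter dormancy and 66116 of their 168863 TPM at the three-leaf stage. Of the other 19, 15 were more than 1.5-fold higher and 4 more than 1.5-fold lower at winter dormancy, and 4 and 2 of them passed the 2-fold rule. Over all 67 names, 45 had the higher value at winter dormancy and 22 at the three-leaf stage, with a median ratio of 1.17. Scaled to the total of all listed miRNAs, 31 were above and 36 below, with a median of 0.99, and 51 were steady. At this depth counting error was small, and the interval of the ratio held 1 for only 6 of the 67.

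The 15 most abundant steady names spanned conserved and grass-specific miRNAs. miR168a-5p, which targets the mRNA of the Argonaute protein AGO1, stood at 98540 TPM at winter dormancy and 66116 TPM at the three-leaf stage, 1.49-fold higher, which is close to the 1.5-fold limit. The 3p name of its family, miR168-3p, stood at 5111 and 4675 TPM in the same order. That was 1.09-fold higher, or 1.08-fold lower when scaled to the total of all listed miRNAs. miR159a.1, a regulator of GAMYB-type MYB transcription factors, had 46342 TPM at winter dormancy and 50795 TPM at the three-leaf stage, 1.1-fold lower. miR7757-5p had 5969 TPM at winter dormancy and 7701 TPM at the three-leaf stage. miR9662a-3p had 4961 TPM at winter dormancy and 5346 TPM at the three-leaf stage, and miR5062a had 4891 and 4649 TPM, higher at winter dormancy as deposited but 1.12-fold lower under that scaling. The remaining 9 were miR171b, miR9674b-5p, miR167a, miR171a-3p, miR9674b-3p, miR444b.1, miR2275b-5p, miR156a-5p and miR396b-5p. Among these, miR9674b-3p moved least, with 2086 TPM at winter dormancy and 2150 TPM at the three-leaf stage, 1.03-fold lower, while its 5′ arm, miR9674b-5p, was at 2971.5 and 4271 TPM, 1.44-fold lower. miR167a had 2377.5 TPM at winter dormancy and 2045 TPM at the three-leaf stage.

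Several abundant names narrowly missed being steady and did not pass the 2-fold rule. miR5048-5p, the most abundant of them, had 7626 TPM at winter dormancy and 5063 TPM at the three-leaf stage, 1.51-fold higher (95% counting interval 1.49 to 1.52), with an interval that held the 1.5-fold limit. miR9773 had 1901 TPM at winter dormancy and 1180 TPM at the three-leaf stage, 1.61-fold higher. These 2 were named after their values were seen.

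Conserved and regulatory families were grouped into 9 lists by the role of their targets, 31 families and 77 names in all. Of the 77 names, 10 were higher, 13%, and 7 lower, 9.09%, beside 8.63% and 7.82% of all known names. Counts for single lists rest on few names and include names listed at 0 in both libraries. Of the 31 families, 4 were higher (miR164, miR165/166, miR482 and miR528) and 3 lower (miR319, miR394 and miR827), 21 passed in neither direction and 3 were listed at 0 in both libraries. Scaled to the total of all listed miRNAs, 1 family was higher (miR482) and 6 were lower, since miR164, miR165/166 and miR528 no longer passed the rule and miR160, miR172 and miR390 now did, and 7 of the 77 names were higher and 8 lower. The median fold of the role families was 1.49 in either direction, against 1.30 over all families.

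**Figure D3:**
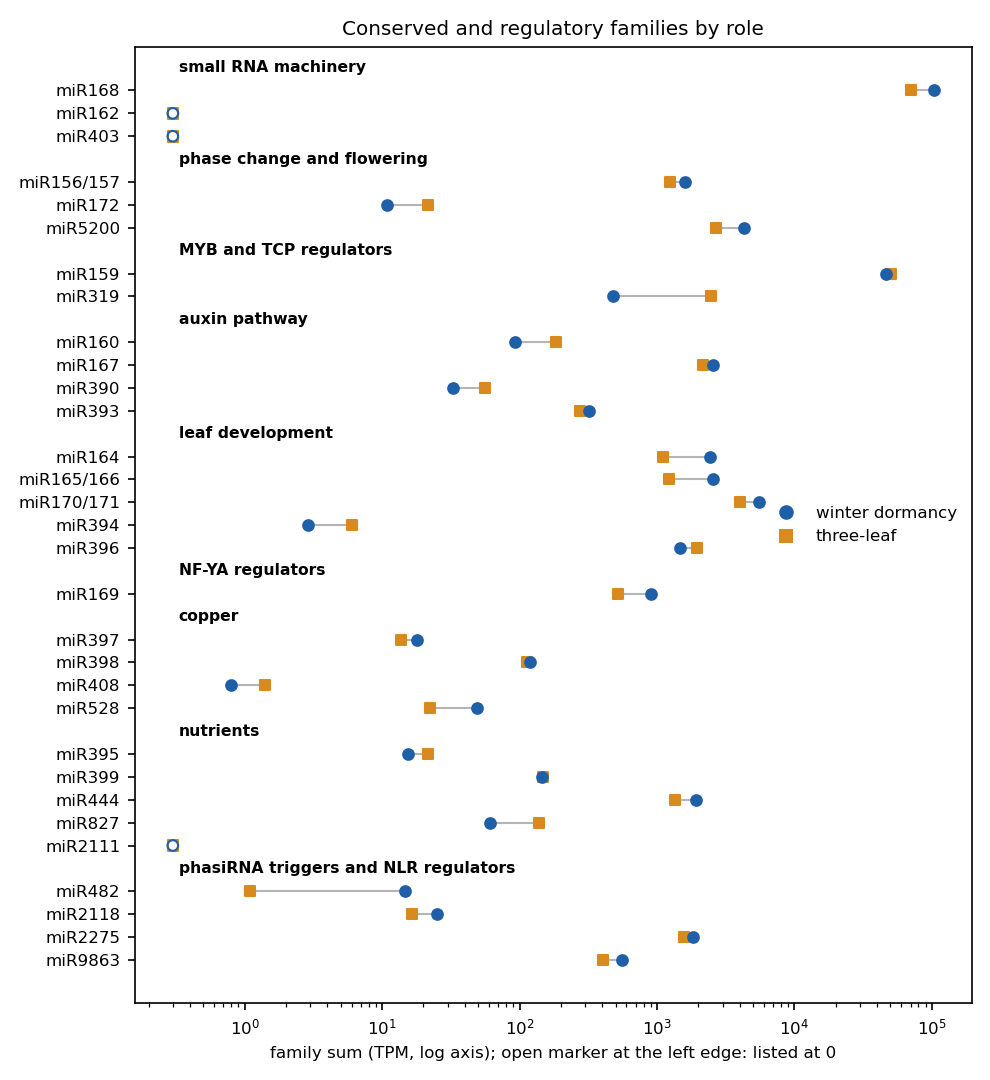
Sums of the 31 role families in TPM on a log axis, with blue circles for winter dormancy and orange squares for three-leaf, joined by a line. Open symbols at the left edge are families listed at 0 in both libraries. The longest lines are those of miR482, at 14.7 TPM for winter dormancy and 1.1 TPM for three-leaf, and miR319, at 474.8 and 2486.4 TPM.

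Of the families that act on the small RNA machinery, only miR168 was present. Its sum was 103651 TPM at winter dormancy and 70791 TPM at the three-leaf stage, 1.46-fold higher, equal to 45.8% and 37.1% of the known total. miR162, which targets Dicer-like 1, and miR403, which targets an Argonaute, were listed at 0 in both libraries.

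Of 10 names of phase change and flowering time, 1 was higher and 2 were lower, but no family of the list passed the rule as a sum. Over all known names, 8.63% were higher and 7.82% lower. The miR156/157 family, which represses SPL transcription factors and marks the juvenile phase, had 1608 TPM at winter dormancy and 1239 TPM at the three-leaf stage, 1.30-fold higher. Its main member miR156a-5p had 1483 TPM at winter dormancy and 1145 TPM at the three-leaf stage. By qRT-PCR the paper reported miR156a-5p as lower at winter dormancy, a difference that its sequencing did not show. The paper named the mismatches allowed when reads were named as the probable reason. miR172, which represses AP2-like factors and acts in the opposite sense in phase change, had 10.8 TPM at winter dormancy and 21.6 TPM at the three-leaf stage. That is exactly 2-fold lower (interval 1.70 to 2.36) and just short of the rule, which it passed under each of the 3 other scalings tried at 2.02-fold or more, while its member miR172e-3p, at 2.3 and 8.0 TPM, passed it. miR5200, which in Brachypodium targets FT-like flowering genes, had 4295 TPM at winter dormancy and 2669 TPM at the three-leaf stage, 1.61-fold higher. Most of it was miR5200a-3p, with 3790 TPM at winter dormancy and 2298 TPM at the three-leaf stage, beside miR5200-5p with 505 and 371 TPM. At both later stages the miR5200 family was lower than in either library, at 669 TPM in spring green-up and 586 TPM in jointing.

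Of the related miR159 and miR319 families, only miR319 passed the rule. miR319, which represses TCP transcription factors that set leaf growth, had 475 TPM at winter dormancy and 2486 TPM at the three-leaf stage, 5.24-fold lower (interval 5.12 to 5.35). Nearly all of it was miR319b-3p, with 462 TPM at winter dormancy and 2474 TPM at the three-leaf stage, 5.35-fold lower (interval 5.24 to 5.47). miR319-5p was level, at 12.5 TPM in winter dormancy and 12.2 TPM at the three-leaf stage. miR319a-3p and miR319c, each 1 mismatch from miR319b-3p, were listed at 0 in both libraries. miR159a.1 differs from miR319b-3p by 4 mismatches when shifted by 1 base, and the level of miR159 differed 1.1-fold. In spring green-up miR319b-3p was at 58.2 TPM, and at jointing it was listed at 0. The miR319 family sum was 69.3 TPM in spring green-up and 441.3 TPM at jointing, where miR319a-3p was listed at 234.1 TPM.

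In the auxin pathway, 2 of 8 names were lower and none was higher, beside 7.82% lower and 8.63% higher over all known names. miR160, which targets auxin response factors of the repressor type, had 92.2 TPM at winter dormancy and 183 TPM at the three-leaf stage, 1.98-fold lower (interval 1.88 to 2.10), and passed the rule under the same 3 scalings, by up to 2.35-fold. Its main strand miR160a-5p had 51.3 TPM at winter dormancy and 147 TPM at the three-leaf stage, 2.86-fold lower (interval 2.66 to 3.07). The other called name, miR393b-3p, was rare, at 2.0 TPM in winter dormancy and 6.8 TPM at the three-leaf stage. miR167, which targets activating auxin response factors, had 2574 TPM at winter dormancy and 2158 TPM at the three-leaf stage, 1.19-fold higher. Within it miR167e-3p, with 196 TPM at winter dormancy and 113 TPM at the three-leaf stage, was 1.73-fold higher. miR393, which targets the TIR1 and AFB auxin receptors, had 320 TPM at winter dormancy and 277 TPM at the three-leaf stage, a ratio of 1.15 that became 0.98 when scaled to the total of all listed miRNAs. miR393-5p made up 318 and 270 TPM of these sums. miR390, which starts the formation of tasiRNAs against auxin response factors, had 32.8 TPM at winter dormancy and 56.3 TPM at the three-leaf stage, 1.72-fold lower, or 2.03-fold under that scaling, and its member miR390a-5p had 31 TPM at winter dormancy and 52.3 TPM at the three-leaf stage.

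In the leaf development list, 3 of 19 names were higher and none was lower, beside 8.63% and 7.82% of all known names. miR164, which targets NAC transcription factors of the CUC type, had 2429 TPM at winter dormancy and 1114 TPM at the three-leaf stage, 2.18-fold higher (interval 2.15 to 2.22). miR165/166, which targets class III HD-ZIP factors of leaf polarity, had 2559.5 TPM at winter dormancy and 1220.5 TPM at the three-leaf stage, 2.10-fold higher (interval 2.07 to 2.13). Scaled to the total of all listed miRNAs they were 1.84-fold and 1.77-fold higher and no longer passed the rule. Their main members had nearly the same values in each library, 2422.5 TPM for miR164a and 2429 TPM for miR165a-3p at winter dormancy, and 1110.5 TPM for miR164a and 1107 TPM for miR165a-3p at the three-leaf stage. Across all 4 libraries these 2 names differed by at most 1.1%, the closest match of any pair among 72 names with more than 50 TPM at every stage, although the sequences printed for them are unlike. The next closest pair, miR2199 and miR6224a-5p, differed by up to 5.56%. Why miR164a and miR165a-3p match so closely was not tested. miR170/171, which targets GRAS-domain factors, had 5551 TPM at winter dormancy and 4049.5 TPM at the three-leaf stage, 1.37-fold higher. Its members miR171b and miR171a-3p, which share the seed GAUUGAG, were at 3351 and 2190 TPM in winter dormancy and at 2566 and 1480 TPM at the three-leaf stage. miR396, which targets growth-regulating factors, was lower, with 1468 TPM at winter dormancy and 1971 TPM at the three-leaf stage, 1.34-fold lower. Its members miR396b-5p and miR396c-3p moved apart, with 1391 and 64.3 TPM at winter dormancy and 1922 and 32.7 TPM at the three-leaf stage. miR394, which targets an F-box gene, passed the rule at a low level, with 2.9 TPM at winter dormancy and 6.0 TPM at the three-leaf stage, 2.07-fold lower (interval 1.5 to 2.85).

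Of the 7 names of miR169, which represses NF-YA subunits of the CCAAT-binding complex, 3 were higher and none was lower. Only 4 of the 7 were listed in either library. Over all known names, 8.63% were higher and 7.82% lower. The family sum was 898 TPM at winter dormancy and 517 TPM at the three-leaf stage, 1.73-fold higher and short of the rule. miR169f-3p, the partner of the 5′ strand that pairs with NF-YA mRNAs, had 382 TPM at winter dormancy and 103 TPM at the three-leaf stage, 3.69-fold higher (interval 3.52 to 3.88). miR169b-5p was listed at 148 TPM at winter dormancy and at 0 at the three-leaf stage. miR169g, which differs from miR169b-5p by 2 mismatches and shares its seed AGCCAAG, had 357 TPM at winter dormancy and 411 TPM at the three-leaf stage, 1.15-fold lower. Summed, miR169g and miR169b-5p gave 505 TPM at winter dormancy and 411 TPM at the three-leaf stage, a log2 difference of 0.30. The other higher name, miR169n, had 10.9 TPM at winter dormancy and 2.9 TPM at the three-leaf stage. It is near-identical to miR169g, and the sum of the 4 names so linked had a log2 ratio of 0.32. At both later stages miR169f-3p and miR169b-5p were listed at 0.

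Copper-linked families were of low level, with 2 of 8 names higher and 1 lower, beside 8.63% and 7.82% of all known names. miR528, a monocot miRNA of copper-protein and oxidase targets, had 49.4 TPM at winter dormancy and 22.3 TPM at the three-leaf stage, 2.22-fold higher (interval 1.98 to 2.48), or 1.87-fold when scaled to the total of all listed miRNAs. miR398, which targets copper/zinc superoxide dismutases, was level at 120 TPM in winter dormancy and 113 TPM at the three-leaf stage, 1.06-fold higher with an interval of 0.997 to 1.12 that held 1, or 1.12-fold lower under that scaling. Its member miR398a-3p had 74.1 TPM at winter dormancy and 75.2 TPM at the three-leaf stage. The miR397 family, which targets laccases, was listed under names of unlike sequence. miR397-5p had 17.9 TPM at winter dormancy and a listed 0 in the three-leaf library. In contrast, miR397a was listed at 0 at winter dormancy and had 13.8 TPM at the three-leaf stage. The printed sequence of miR397-5p is 1 mismatch from miR397-3p over 21 nt, and miR397-3p was listed at 0 in both libraries. miR408 had only 0.8 TPM at winter dormancy and 1.4 TPM at the three-leaf stage.

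Beside 7.82% lower and 8.63% higher over all known names, 1 of 7 names of nutrient families was lower and none was higher. That name, miR827, which targets SPX-domain genes of phosphate homeostasis, had 60.7 TPM at winter dormancy and 139 TPM at the three-leaf stage, 2.28-fold lower (interval 2.14 to 2.44). miR399, which targets the phosphate regulator PHO2, did not move with it. It had 147 TPM at winter dormancy and 149 TPM at the three-leaf stage, a ratio of three-leaf over winter dormancy with an interval of 0.961 to 1.06. miR444, a monocot regulator of MADS-box genes, had 1914 TPM at winter dormancy and 1346 TPM at the three-leaf stage, 1.42-fold higher. miR395, of sulphate assimilation, had 15.4 TPM at winter dormancy and 21.6 TPM at the three-leaf stage. miR2111, another miRNA of phosphate starvation, was listed at 0 in both libraries and had 1385.5 TPM in spring green-up.

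Among miRNAs that act on disease resistance genes of the NLR class or start phased siRNA formation, the abundant ones were steady. Of the 9 names, 1 was higher and none lower, beside 8.63% and 7.82% of all known names. miR2275, a family whose 3′ strand starts the formation of phased small RNAs in grasses, had 1831.5 TPM at winter dormancy and 1569 TPM at the three-leaf stage, 1.17-fold higher, with a ratio of 0.988 when scaled to the total of all listed miRNAs, and was listed at 0 at both later stages. Nearly all of this sum was the other strand, miR2275b-5p, with 1831.5 TPM at winter dormancy and 1568 TPM at the three-leaf stage, while miR2275b-3p was listed at 0 at winter dormancy and had 0.6 TPM at the three-leaf stage. miR9863, which in barley targets Mla-type resistance genes, had 552 TPM at winter dormancy and 407 TPM at the three-leaf stage, 1.36-fold higher. Of its arms, miR9863a-3p had 470 TPM at winter dormancy and 336 TPM at the three-leaf stage, and miR9863a-5p had 82.1 and 70.8 TPM. miR482 was higher, at 14.7 TPM in winter dormancy and 1.1 TPM at the three-leaf stage, 13.4-fold (interval 8.79 to 22.0). Most of that came from miR482b-3p, at 12 TPM in winter dormancy and at a listed 0 in the three-leaf library. The related miR2118 had 25.0 TPM at winter dormancy and 16.5 TPM at the three-leaf stage, 1.52-fold higher.

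The 24 names that passed the rule with a value in both libraries were spread over all levels. Of the 24, 17 had an interval that lay wholly beyond 2-fold and 7 had one that held 2, among them miR1125, miR9652-5p and miR1130b-3p. Outside the role lists, the widest downward difference among names above 50 TPM was that of miR4410, with 32.7 TPM at winter dormancy and 265 TPM at the three-leaf stage, 8.11-fold lower (interval 7.49 to 8.80). It was listed at 0 at both later stages. miR1135 had 39.5 TPM at winter dormancy and 100 TPM at the three-leaf stage, 2.54-fold lower. It is near-identical to miR1127b-3p, which was level at 383 TPM in winter dormancy and 375 TPM at the three-leaf stage, and the sum of the 9 names linked to it by near-identity was slightly higher at winter dormancy, with a log2 ratio of 0.13. miR5072 had 54.3 TPM at winter dormancy and 119 TPM at the three-leaf stage, 2.2-fold lower. miR1125, just past the line, had 131.9 TPM at winter dormancy and 265.5 TPM at the three-leaf stage, 2.01-fold lower (interval 1.92 to 2.11). miR1120b-3p, just short of it, had 18.8 TPM at winter dormancy and 37.3 TPM at the three-leaf stage, 1.98-fold lower. miR1139 showed the widest ratio, with 0.5 TPM at winter dormancy and 37.5 TPM at the three-leaf stage, 75-fold lower, but the interval ran from 41.7 to 161 because so few reads lay behind the winter dormancy value.

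On the higher side, miR9652-5p had 1216 TPM at winter dormancy and 596 TPM at the three-leaf stage, 2.04-fold higher (interval 2 to 2.08). miR1130b-3p had 194 TPM at winter dormancy and 94.4 TPM at the three-leaf stage, 2.06-fold higher (interval 1.95 to 2.18). miR4995 had 81.6 TPM at winter dormancy and 37.2 TPM at the three-leaf stage, 2.19-fold higher (interval 2.01 to 2.39). Together with miR169f-3p, miR164a and miR165a-3p these were the only names listed in both libraries, above 50 TPM in either, that passed the rule upward. Of these 6, only miR169f-3p still passed it when scaled to the total of all listed miRNAs.

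**Figure D4:**
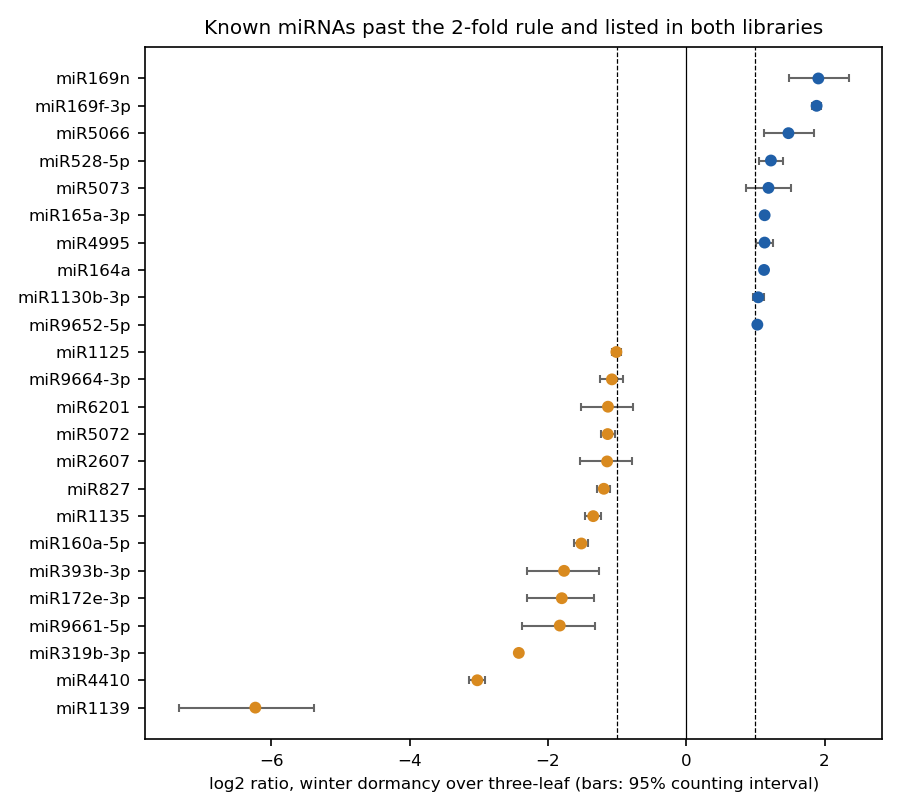
Log2 ratio of winter dormancy over three-leaf for the 24 known miRNAs that passed the 2-fold rule and had a value in both libraries, with bars for the 95% counting interval and dashed lines at 2-fold. The 10 higher names lie between 2.04-fold and 3.76-fold, and miR319b-3p, miR4410 and miR1139 lie farthest to the left.

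Names listed in only 1 of the 2 libraries were many but held little of the total. At winter dormancy 256 of 371 known names were above 0 and at the three-leaf stage 240, with 212 in both. The 44 names found only at winter dormancy summed to 1279 TPM, 0.565% of the known total, and the 28 found only at the three-leaf stage to 1118 TPM, 0.586%. Of the 44, 26 were listed again at a later stage, as were 13 of the 28. The highest names found only at winter dormancy were miR5175a with 171 TPM, miR952b with 166 TPM, miR169b-5p with 148 TPM, miR5809 with 132 TPM, miR156d-3p with 120 TPM, miR5205b with 118 TPM, miR5671a with 88.6 TPM and miR5241a with 65.6 TPM. Of these 8, only miR952b and miR156d-3p were listed at a later stage. The highest found only at the three-leaf stage were miR1509b with 400 TPM, miR7767-5p with 313 TPM, miR5205a with 103 TPM, miR156h-3p with 86.4 TPM, miR5175-5p with 40.7 TPM, miR9783 with 32.3 TPM, miR818a with 32.1 TPM and miR5521 with 14.4 TPM. No fold is given against a listed 0, since the smallest value above 0 for a known name was 0.3 TPM at winter dormancy and 0.5 TPM at the three-leaf stage and fewer reads may be listed as 0.

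Some of these names lay close in sequence to others, or had a partner in the same family that was listed only in the other library. The sequences of the pairs are shown because a read can match more than 1 of them.
miR156d-3p, winter dormancy only: gCUCACUCcucuuucugucagcc
miR156h-3p, three-leaf only: gCUCACUGcucuuccugucauc
miR5205b, winter dormancy only: uUAUAUUAugggacggaggga
miR5205a, three-leaf only: aUAAUUUUggaacggagggag
miR9666b-3p, winter dormancy only: cGGUUGGGcuguaugauggcga
miR9666a-3p, three-leaf only: cGGUAGGGcuguaugauggcga
miR5049d, in both: aGACAAAUauuuaggaacgga
miR1023a-3p, in both: gGAUAUGAauggagagagcgcu
miR5241a, winter dormancy only: uAUGAAUGgagagagcgcugua
In 7 families 1 name was listed only at winter dormancy and another only at the three-leaf stage. miR156d-3p and miR156h-3p, with 120 TPM at winter dormancy and 86.4 TPM at the three-leaf stage, are such a pair, as are miR5205b and miR5205a, with 118 TPM at winter dormancy and 103 TPM at the three-leaf stage. As sums, 4 of the 7 families differed by at most 1.30-fold, namely miR156/157, miR397, miR5205 and miR9666. The other 3 differed more than 2-fold. Of these, miR5175 was 4.20-fold higher, with 171 TPM at winter dormancy and 40.7 TPM at the three-leaf stage, and miR164 was 2.18-fold higher. miR1863 was 2.67-fold lower at 1.5 TPM in winter dormancy and 4 TPM at the three-leaf stage, under the 5 TPM limit. The names joined in the sums of miR397, miR5175 and miR1863 have unlike printed sequences, each listed at 0 in the other library. Those 3 sums do not follow a single RNA. The pair miR9666b-3p and miR9666a-3p, 1 mismatch apart over 22 nt, had 5.7 TPM at winter dormancy and 5.8 TPM at the three-leaf stage. It was the only opposite pair with up to 2 mismatches when the whole overlap, of 18 nt or more, was scored. The printed sequences of miR156d-3p and miR156h-3p are also alike, and they missed this limit only because of a further mismatch near the 3′ end. miR5175a, found only at winter dormancy, shares a run of 19 nt with miR5049d without a mismatch, and miR5049d had 215 TPM at winter dormancy and 178 TPM at the three-leaf stage. miR5241a likewise shares 19 nt with miR1023a-3p, which had 663 TPM at winter dormancy and 510 TPM at the three-leaf stage. Summed with every name linked by near-identity, the log2 ratio was 0.13 for the sum that holds miR5175a, miR5205a and miR1135, 0.52 for that of miR5241a and 1.17 for that of miR5205b. How the reads were divided between such names was not tested. miR5049d and miR1023a-3p were picked for their overlap after the values were seen.

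The run ACGGAGG, looked for as printed, occurred in 14 of 370 known names with a sequence, 3.78%, and in none of the 82 predicted miRNAs. Its reverse complement CCUCCGU occurred in 3 known names and 1 predicted miRNA. Of the 14 names, 4 were higher, 28.6%, and 2 lower, 14.3%, beside 8.63% and 7.82% of all known names. Their sums were 1861 TPM at winter dormancy and 1591 TPM at the three-leaf stage, 1.17-fold higher. Scaled to the total of all listed miRNAs, the ratio of the sums was 0.99, with 3 names higher and 3 lower. The 14 include miR5175a, miR5205a, miR5205b, miR1130b-3p, miR1135 and miR1436. Only 10 of the 14 were listed in both libraries. The calls of miR5175a, miR5205b, miR6248 and miR5205a rested on a listed 0 in 1 library. Several of the 14 are near-identical to each other, so they are not separate counts. The near-identical sum that holds miR5175a, miR5205a and miR1135 had a log2 ratio of 0.13. The run was chosen after the sequences and values had been seen.

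In length and first base, the libraries were alike. Names of 21 nt held 85.5% of the known TPM at winter dormancy and 84.4% at the three-leaf stage, those of 22 nt 9.04% and 9.58%, and those of 24 nt 1.95% and 2.04%. Names that start with U held 87.8% at winter dormancy and 85.1% at the three-leaf stage, and those that start with A held 6.34% and 8.86%.

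The 5p and 3p names of a family did not always move together. In 16 families exactly 1 name ending in 5p and 1 ending in 3p had values in both libraries and more than 5 TPM in at least 1, a set chosen after the values were seen, in which the names may come from different loci of a family. The arms lay on opposite sides of a ratio of 1 in 6 families and on the same side in 10. Several ratios were near 1, and their side changed with the scaling. Scaled to the total of all listed miRNAs, miR393-5p moved to 0.994, which put the arms of miR393 on the same side. Under that scaling miR165a-5p moved to 0.971 and miR168-3p to 0.925, which put the arms of these families on opposite sides. The gap between arms does not depend on the scaling. In 5 families, miR160, miR172, miR319, miR393 and miR6224, the ratios of the arms differed more than 2-fold. Some of these gaps rest on scarce names. miR172e-3p had 2.3 TPM at winter dormancy and 8 TPM at the three-leaf stage. In the same order, miR393b-3p had 2 and 6.8 TPM, and miR319-5p had 12.5 and 12.2 TPM. miR160a-5p was 2.86-fold lower while miR160a-3p had 40.9 TPM at winter dormancy and 36.3 TPM at the three-leaf stage. miR165a-3p was 2.19-fold higher, beside miR165a-5p with 130.3 TPM at winter dormancy and 113.5 TPM at the three-leaf stage. miR9652-5p was 2.04-fold higher, beside miR9652-3p with 75.6 TPM at winter dormancy and 71.6 TPM at the three-leaf stage. miR6224a-5p had 292 TPM at winter dormancy and 185 TPM at the three-leaf stage, whereas miR6224a-3p had 69.2 and 98.4 TPM.

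**Figure D5:**
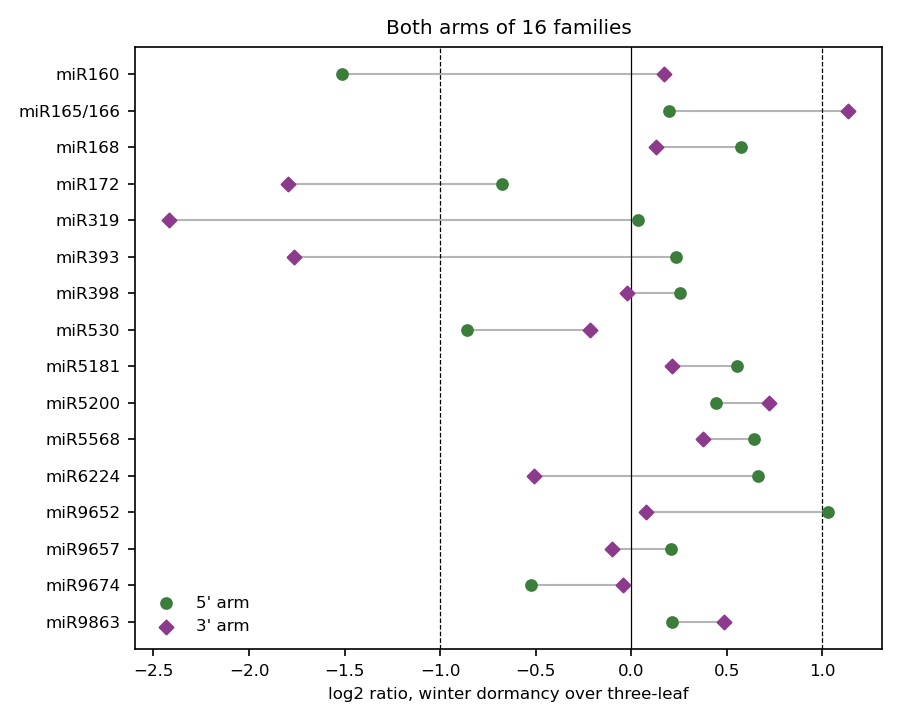
Log2 ratio of winter dormancy over three-leaf for the 5′ arm (green circles) and the 3′ arm (purple diamonds) of 16 families, joined by a line, with dashed lines at 2-fold. The widest gap is that of miR319, whose arms differ 5.48-fold in their ratios, and the narrowest gap is 1.20-fold. The names joined by a line may come from different loci of a family.

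Predicted miRNAs were those the study inferred from precursor folding. They were few in TPM, with 5677 TPM at winter dormancy and 5329 TPM at the three-leaf stage over all 82. Positions are those in the deposited table, on the Chinese Spring wheat sequence of Ensembl Plants release 31, and no gene annotation of that sequence was used here. The mature sequences of the 4 highest at winter dormancy are shown, since they held most of the predicted TPM and include the 1 of them found only there.
novel_miR1202, chromosome 6A, plus strand: uUCUUCAAguacuccacuuuu
novel_miR1544, chromosome 7D, plus strand: aGUCUCUGccaauucuucgug
novel_miR1560, chromosome 7D, plus strand: uAAACCUUcacaaauucccuug
novel_miR2745, chromosome 3B, minus strand: aACUGGUCuugcuuaauuuug
novel_miR1202 (6A:54567630-54567708) had 1922 TPM at winter dormancy and 2360 TPM at the three-leaf stage, 1.23-fold lower. novel_miR1544 (7D:33225951-33226049) had 916 TPM at winter dormancy and 536 TPM at the three-leaf stage, 1.71-fold higher. novel_miR1560 (7D:154998364-154998643) was level, with 778 TPM at winter dormancy and 757 TPM at the three-leaf stage, and was listed at 0 at both later stages. novel_miR2745 (3B:727179272-727179624) had 198 TPM at winter dormancy and was listed at 0 at the other 3 stages. The precursor of novel_miR2745 spans 353 bases, and a miRNA* was listed for it.

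The other 6 of the 10 most abundant predicted miRNAs were novel_miR1620, novel_miR1686, novel_miR390, novel_miR128, novel_miR1327 and novel_miR465. Their values at winter dormancy were 165, 160, 143, 134, 127 and 97.7 TPM, and in the same order 232, 88.9, 101, 115, 90.6 and 83.3 TPM at the three-leaf stage. None of them passed the rule, and novel_miR1620 was the only one with the lower value at winter dormancy. novel_miR128 lies on the minus strand of chromosome 1B (1B:112783446-112783640), next to novel_miR127 (1B:112783201-112783394), which was picked for this position and had 53.8 TPM at winter dormancy and 49.5 TPM at the three-leaf stage.

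All 6 predicted miRNAs that were higher had a listed miRNA*, the partner strand cut from the same precursor, and 4 of the 5 that were lower had none. Among all 82 predicted miRNAs, 55 had a miRNA* and 27 had none. Of these calls, 9 rested on a listed 0 in 1 library. All 27 without a miRNA* were listed at the three-leaf stage, against 37 of the 55 with one. None of the 27 could therefore be listed only at winter dormancy, as 4 of the 6 higher ones were. Besides novel_miR2745, the higher ones were novel_miR259 with 18.8 TPM at winter dormancy and 6.5 TPM at the three-leaf stage, novel_miR678 with 11.4 and 4.7 TPM, and, listed only at winter dormancy, novel_miR2567, novel_miR3314 and novel_miR2917 with 12.1, 6.7 and 5.5 TPM. The lower ones were all listed at 0 at winter dormancy. At the three-leaf stage novel_miR1576 had 39.9 TPM, novel_miR1306 24.4 TPM, novel_miR2185 17.0 TPM, novel_miR1634 14.2 TPM and novel_miR658 11.0 TPM. Some of these names are near-identical to others that were listed in both libraries. Summed with its partner, novel_miR2917 (with novel_miR810) had a log2 ratio of 0.84, short of the rule. The sums of novel_miR658 with novel_miR354 and of novel_miR1634 with novel_miR1786 were also short of it, at -0.99 and -0.91. Of the 55 predicted miRNAs with a miRNA*, 27 had values in both libraries with more than 5 TPM in either, and 21 of these were above a ratio of 1 and 6 below, with a median ratio of 1.36. Of the 27 without, 23 had such values, and 13 were above and 10 below, with a median ratio of 1.07. Scaled to the total of all listed miRNAs, 15 were above and 12 below with a miRNA*, and 10 above and 13 below without. The difference between these 2 groups was not tested.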

How the data were processed

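Small RNA of wheat leaves was sequenced on the BGISEQ-500 platform. The authors trimmed adaptors, kept reads of 18 to 30 nt, named reads that matched plant miRNAs of miRBase release 21 with at most 2 mismatches, and predicted further miRNAs with MIREAP. The values deposited by the authors are RPM, reads per 1000000 mapped reads, rounded to 1 decimal, with 1 library per stage. From the 2 libraries, names in 2 entries (miR531, miR5050) were counted once, and values under 3 reads were raised to 3 reads before a fold was taken. Reads were estimated as the value times the mapped reads of the library, and intervals are Clopper-Pearson at 95%. miRNAs were named by rule: role-list families and members over 50 TPM, the widest folds, the highest names listed in 1 library, the most abundant steady names, and predicted miRNAs past the rule or most abundant. Members and lists were chosen with earlier results of these data known, and names outside the rule were chosen after their values were seen. The rule and intervals were checked on simulated reads that varied by counting error only, with changes set wider than the 2-fold limit. Calls near that limit, spread between plants and the division of reads between names were not covered. Python 3.11.15, numpy 2.4.6, pandas 2.3.3, scipy 1.17.1 and matplotlib 3.10.9 were used.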

Additional observations from a re-analysis of the deposited data

How the results depend on the processing

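No paired analysis was possible because each stage had 1 library, and for the same reason no replicate could be left out. Counts of higher and lower known miRNAs (32 and 29) became 56 and 44 with no level filter, 14 and 11 at 50 TPM, and 10 and 14 with listed zeros treated as missing. The lower count became 19 for names of 20 to 22 nt. Family counts (22 and 21) became 40 higher with no level filter, 8 and 8 at 50 TPM, 8 and 12 without listed zeros, and 14 and 11 for 20 to 22 nt. Predicted miRNAs (6 and 5) became 1 and 0 at 50 TPM, 2 and 0 without listed zeros, and 3 lower when near-identical sequences were summed. Steady names (48) became 21 at more than 500 TPM in both libraries. The miR168 share was 47.9% at winter dormancy and 39.0% at the three-leaf stage over 20 to 22 nt, and 44.7% and 36.1% with predicted miRNAs in the total. Summing near-identical sequences turned the log2 ratio to 0.13 for the sums that hold miR1135 and miR5205a, and to -0.025 for that of miR9666b-3p. All other counts stayed within 1.5 times. Of 168 log2 ratios of single miRNAs and role families, scaling to the total of all listed miRNAs took 104 out of their counting interval and changed the sign of 22, none of them called. Scaling without the miR168 family moved 37 and changed 4 signs, and the median of ratios moved 10 and changed 2. With a pseudocount of 0.1 TPM all 168 stayed within their interval, and with 1 TPM 48 did not. Of 140 single miRNAs, near-identical sums moved 25 besides the 3 that reversed and changed 4 signs in all. Stages rest on pooled RNA, so plant-to-plant spread, and whether a difference would recur, was not measured.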
